A study of Drosophila melanogaster with 34 samples.

Results

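CRY2-ZLD embryos kept under blue light through nuclear cycles 10 to 14 were compared with wild-type embryos kept under the same light. The comparison takes the 6 libraries that the sample labels assign to this light window, 3 of CRY2-ZLD and 3 of wild type, out of 34 libraries in the series. Each library holds poly(A) RNA of 1 single Drosophila melanogaster embryo, picked 30 minutes into nuclear cycle 14 (NC14). CRY2-ZLD embryos carried the CRY2-ZLD allele and the red nuclear marker His2AvRFP, and wild-type embryos carried His2AvRFP without that allele. Embryos of both genotypes were exposed to 488 nm light for the whole window, NC10-14, and to 587 nm light in short intervals to image the marker and time the cycles. Replicates 1, 2 and 4 of each genotype were present, and values of single libraries are given below in that order. The series holds no unlit wild-type embryos, and the sex of the embryos was not labelled. Other groups are set beside this comparison where stated, namely 4 CRY2-ZLD embryos without light and 4 embryos of each genotype lit during NC13-14, all with the same marker and collected at the same labelled time.

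Zelda, the product of zld, is a zinc finger protein that binds enhancers and promoters before the zygotic genome is switched on and opens their chromatin for other factors. In the Drosophila blastoderm it acts on the genes that build the first cells, lay down the body axes and count the X chromosomes, while the egg's maternal RNAs are being cleared. CRY2 is a photoreceptor of plants, which forms clusters in blue light, and its fusion to Zelda makes the protein light-sensitive. The comparison asks which transcripts differ when the fusion is lit during all the cycles in which zygotic transcription starts.

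Total counts per library ran between 21638066 and 27596697 in CRY2-ZLD and between 21386607 and 33015503 in wild type. Levels are given as CPM, counts scaled to the size of the library, and changes are log2 differences of CRY2-ZLD minus wild type ± SE with p-values adjusted over 9519 genes tested. Across genes, log2 levels of pairs of libraries correlated at 0.964 to 0.979 (Pearson's r) within CRY2-ZLD, at 0.973 to 0.988 within wild type and at 0.910 to 0.953 between genotypes. The zld transcript had 847, 1088 and 976 CPM in CRY2-ZLD and 723, 886 and 1010 CPM in wild type, with ranges that overlapped (0.15 ± 0.32, adjusted p = 0.793). Counts per gene do not tell the fused from the native zld transcript. Follicle cell and yolk markers, a sign of maternal tissue, summed to 0.183 to 1.59 CPM in CRY2-ZLD and 0.391 to 1.08 CPM in wild type, with 6 genes at 0 counts in all 6 libraries. Less RNA per cell and fewer cells of a type cannot be told apart in whole embryos.

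Of the genes tested, 722 were lower in CRY2-ZLD (7.58% of 9519) and 744 were higher (7.82%). Counts of gene list members given below stand beside these shares. At least 4-fold changes were found for 451 of the 722 genes that fell and 339 of the 744 that rose, and at least 64-fold changes for 65 and 15, with genes that had 0 counts in one genotype taken at a floor of 3 counts over that group. The median difference was -2.92 for the genes that fell and 1.89 for those that rose. The 3 libraries of each genotype did not overlap for 650 of the genes that fell and 606 of those that rose, where over all genes 15.7% lay apart in the lower direction and 14.3% in the higher.

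Genes that fell had a median level per kilobase of exon of 2.89 CPM in CRY2-ZLD and 18 CPM in wild type, and genes that rose 10.9 CPM in CRY2-ZLD and 2.55 CPM in wild type. A single exon block made up 21.1% of the genes that fell, 7.66% of those that rose and 13.4% of all genes tested, and the median exon length was 1892, 3005 and 2039 bases in the same order. Calls were spread unevenly over levels. Among 161 genes with a mean of 1000 CPM or more over both genotypes 12 fell and 1 rose, while of 2894 genes with a mean of 10 to 100 CPM 280 fell and 360 rose. On the X chromosome 80 of 1635 genes fell (4.89%), against 1.1% of the 91 genes on chromosome 4 and between 6.73% on 3R and 9.32% on 2R for the other arms.

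**Figure D1:**
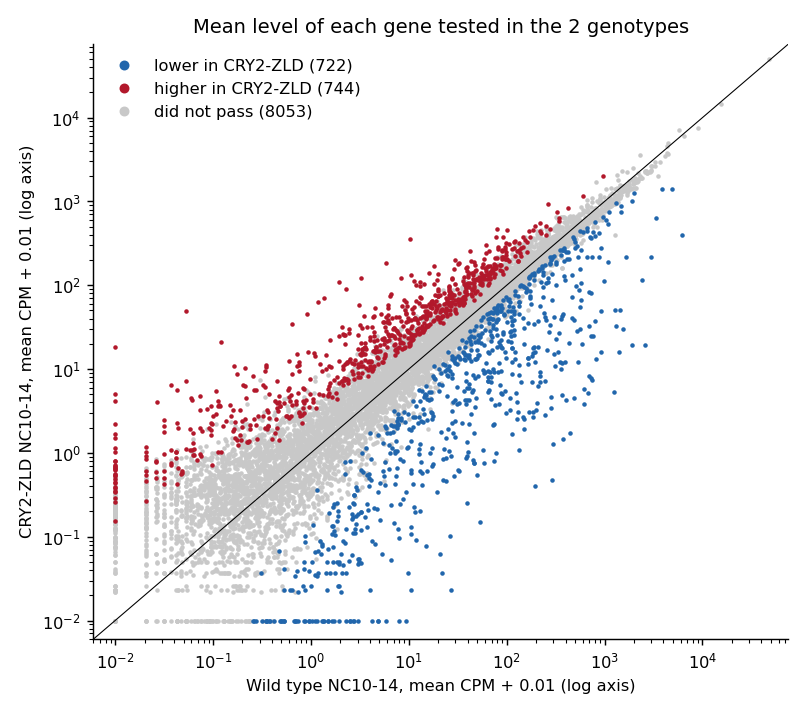
Mean level of each of the 9519 genes tested in CRY2-ZLD (vertical axis) and wild type (horizontal axis) under light during NC10-14, in CPM plus 0.01 on log axes, so that a mean of 0 lies at 0.01. Blue points are the 722 genes lower in CRY2-ZLD, red points the 744 higher, grey points those that did not pass, and the line marks equal levels.

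CRY2-ZLD replicate 4 and wild-type replicate 2 stood apart within their groups. CRY2-ZLD replicate 4 had the highest level of its group for 449 of the 744 genes that rose (3464 of all 9519), and wild-type replicate 2 had the lowest level of its group for 425 of the 722 genes that fell (3399 of all 9519). Without CRY2-ZLD replicate 4, 515 genes fell and 519 rose, and without wild-type replicate 2, 666 fell and 672 rose. The count of genes that rose was 413 when wild-type replicate 1 was left out and 422 when wild-type replicate 4 was. Replicate 4 of both genotypes stands apart from replicates 1 and 2 in the sample numbers of the column names. Mitochondrial large rRNA made up 1.54% of its counts in CRY2-ZLD and 0.982% in wild type, against 7.18% and 7.28% in CRY2-ZLD replicates 1 and 2 and 6.18% in both wild-type replicates. With a term for the later sample numbers 741 genes fell and 697 rose, and in replicates 1 and 2 alone 444 fell and 309 rose. Replicate 4 holds 1 library of each genotype and gives no test of its own. In a fit of these 6 libraries alone 376 genes fell and 294 rose. With libraries scaled on the ribosomal protein genes the median of all genes moved by 0.27, and 446 genes fell and 807 rose, so that 35.6% of the calls were decreases, against 49.2% with the scaling used here.

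Cellularization genes encode the machinery that pulls membrane down between the nuclei of the blastoderm. All 6 tested members of this list fell, with a median of -3.87 beside 0.06 over all genes. The gene slam, whose product organises the furrow front (FBgn0043854, chromosome 2L, 6372388 to 6377284, plus strand), stood at 388, 467 and 340 CPM in CRY2-ZLD, against 8688, 2821 and 7175 CPM in wild type. The genotypes did not overlap, and wild-type replicate 2 was the lowest of its group (-3.97 ± 0.45, adjusted p = 8.67e-08). The adhesion protein gene Nrt (FBgn0004108, chromosome 3L, 16766072 to 16777465, plus strand) had 227, 252 and 169 CPM in CRY2-ZLD and 3835, 1384 and 3626 CPM in wild type (-3.77 ± 0.26, adjusted p = 1.5e-11). Reads of Nrt could be shared with another gene over 935 of its 4281 exon bases.

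The furrow gene bnk, which holds the actin network open until furrows are deep, had 14.8, 35.7 and 7.63 CPM in CRY2-ZLD, against 2329, 1092 and 2288 CPM in wild type (-6.62 ± 0.86). In slam, Nrt and bnk the CRY2-ZLD libraries lay far below all wild-type libraries, and wild-type replicate 2 lay between. The nuclear lamina gene kuk, required for nuclear elongation, changed less, at 1399, 1644 and 1128 CPM in CRY2-ZLD and 4810, 2584 and 4290 CPM in wild type (-1.49 ± 0.20). The lipid droplet transport gene halo had 58.1, 76.1 and 18.4 CPM in CRY2-ZLD and 1593, 701 and 2001 CPM in wild type (-4.82 ± 0.56). The furrow gene nullo had 23.7, 23.1 and 8.36 CPM in CRY2-ZLD, against 168, 301 and 102 CPM in wild type (-3.37 ± 0.84, adjusted p = 0.00506). Neither halo nor nullo overlapped between genotypes. Without wild-type replicate 2 and CRY2-ZLD replicate 4 together nullo was at -2.54 (adjusted p = 0.0987).

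Levels of nullo and of smg, a gene chosen after its values were seen, were also taken from the other embryos of the same labelled stage. The furrow gene nullo was at 1.21 to 4.61 CPM in unlit CRY2-ZLD, at 8.59 to 26.7 CPM in CRY2-ZLD lit during NC13-14 and at 1.30 to 9.50 CPM in wild type lit during NC13-14, so that CRY2-ZLD overlapped between the light windows and wild type did not. The maternal RNA of smg, which codes for a repressor that clears maternal transcripts, stood at 1421, 1717 and 3782 CPM in CRY2-ZLD and 1411, 1986 and 1096 CPM in wild type. Outside the NC10-14 groups smg was at 75 to 130 CPM in unlit CRY2-ZLD, 103 to 274 CPM in CRY2-ZLD NC13-14 and 164 to 382 CPM in wild type NC13-14, all below every NC10-14 embryo. Between the NC10-14 genotypes smg did not pass (0.62 ± 0.57, adjusted p = 0.502). Where NC10-14 embryos are compared with the other groups below, light and this difference in smg cannot be told apart.

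Of 10 mitotic regulators 2 fell and 1 rose, with a median of -0.24, where 7.58% of all genes fell and 7.82% rose. Both that fell hold back mitosis at the last blastoderm division. Z600, an inhibitor of the mitotic kinase, had 63.3, 89.8 and 13.8 CPM in CRY2-ZLD and 807, 275 and 596 CPM in wild type (-3.33 ± 0.47). The gene trbl, which targets the phosphatase String for destruction, had 111, 85.5 and 51.2 CPM in CRY2-ZLD and 856, 160 and 1062 CPM in wild type (-3.07 ± 0.40). Both separated the genotypes. The gene of String itself, stg, passed through 1 embryo: it had 395 CPM in CRY2-ZLD replicate 4 and 52.5 and 27.1 CPM in the other CRY2-ZLD libraries, against 22 to 41.8 CPM in wild type. Without CRY2-ZLD replicate 4 its difference was 0.51 (adjusted p = 0.590), and 4 members of the list fell.

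**Figure D2:**
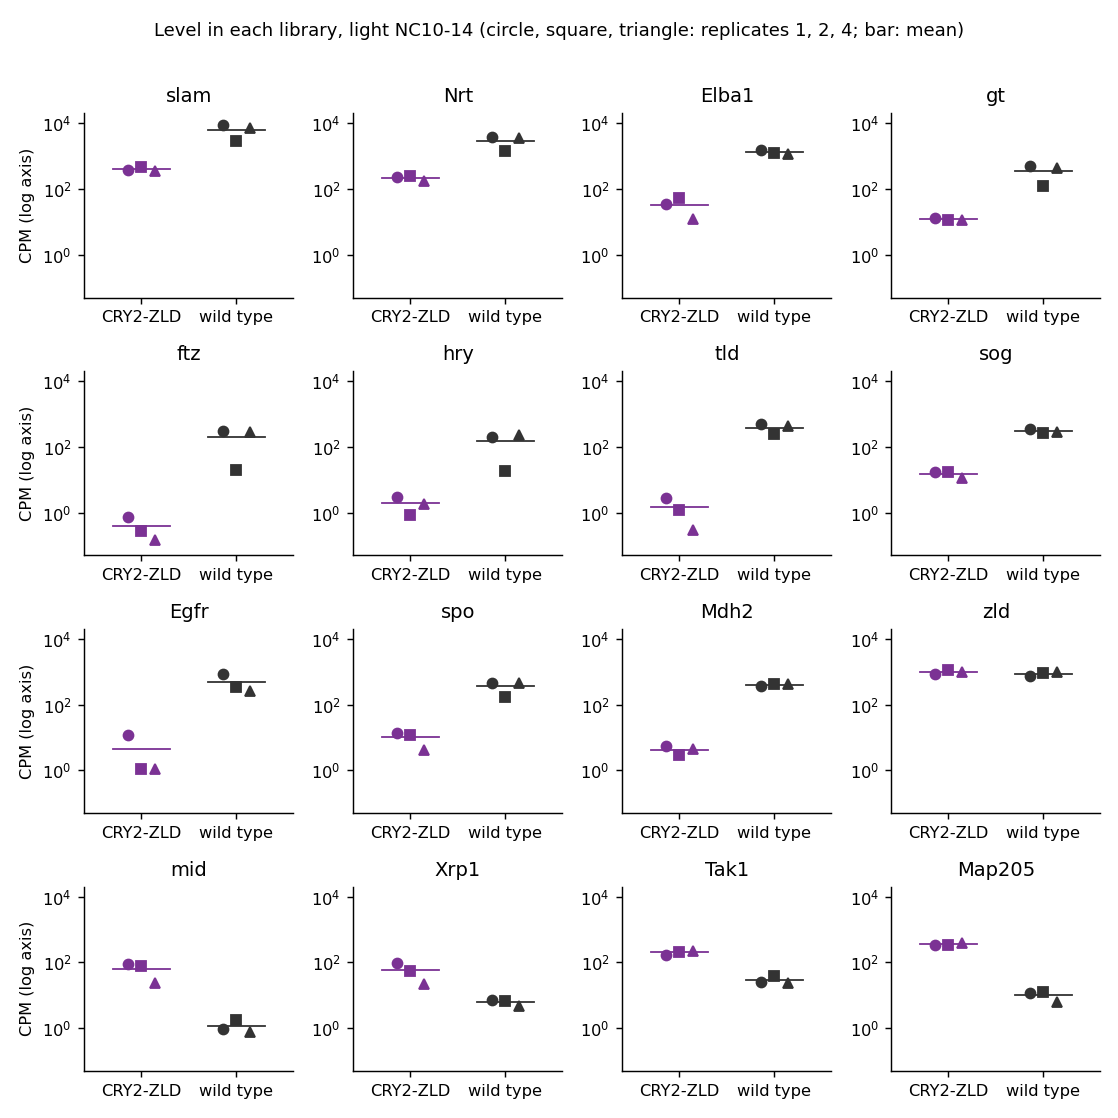
Level of 16 genes in each library, in CPM on a log axis, with CRY2-ZLD on the left and wild type on the right of each panel. Symbols are replicates 1, 2 and 4 and the bars are means: 11 genes lie lower and 4 higher in CRY2-ZLD, and zld lies level.

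The Elba insulator group codes for the proteins of a boundary complex active in the early embryo and for its relative Insensitive. All 4 genes fell (median -3.79). Elba1 (FBgn0000227, chromosome 2L, 4683052 to 4684461, minus strand) had 35.1, 51.6 and 12.5 CPM in CRY2-ZLD, against 1527, 1272 and 1149 CPM in wild type (-5.32 ± 0.42, adjusted p = 1.23e-10). Its partner Elba3 had 46.5, 85 and 20.8 CPM in CRY2-ZLD and 1460, 1094 and 1314 CPM in wild type (-4.67 ± 0.51). For Elba1 and Elba3 wild-type replicate 2 stood close to the other wild-type libraries, unlike in slam, Nrt and bnk. Elba2 (-2.91 ± 0.44) and insv (-1.86 ± 0.20) fell less. In wild type they had 1890, 971 and 2054 CPM and 701, 329 and 673 CPM, with replicate 2 the lowest. Among 10 other factors that bind early chromatin, zld included, the insulator gene CTCF rose (2.04 ± 0.52, adjusted p = 0.00655), with reads that could be shared over 700 of its 2892 exon bases. Without CRY2-ZLD replicate 4 CTCF was at 1.40 (adjusted p = 0.0934).

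The embryo reads the number of X chromosomes through a small set of X-linked transcripts that activate Sxl, the switch gene of female development. Of 10 genes of this signal and its switch 7 fell (median -3.64). The X-linked activator sc had 0.515, 0.70 and 1.06 CPM in CRY2-ZLD, against 32, 104 and 40.5 CPM in wild type (-6.26 ± 0.86, adjusted p = 2.49e-06). For sisA, another X-linked activator, the values were 1.63, 2.05 and 5.47 CPM in CRY2-ZLD and 54.4, 175 and 281 CPM in wild type (-5.79 ± 0.75). The cytokine gene upd1, which signals through JAK and STAT, had 0.832, 0.560 and 0 CPM in CRY2-ZLD and 352, 101 and 426 CPM in wild type (-9.31 ± 0.95). For all 3 activators every CRY2-ZLD embryo lay far below every wild-type embryo.

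The counteracting autosomal gene dpn fell as well, at 3.13, 4.52 and 3.72 CPM in CRY2-ZLD and 152, 29.2 and 68.2 CPM in wild type (-4.45 ± 0.47), with 1207 of its 2036 exon bases shared with another annotated gene. Sxl had 36.2, 20 and 18 CPM in CRY2-ZLD and 53.1, 687 and 1573 CPM in wild type (-4.96 ± 1.20, adjusted p = 0.00388). Wild-type replicate 1 lay far below the other wild-type embryos, and in replicates 1 and 2 alone Sxl was at -3.68 (adjusted p = 0.108). The part of embryo sex in these values was not tested.

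Among 7 dosage compensation genes, which raise transcription of the male X chromosome, 2 fell and 1 rose (median 0.50). Of those that fell, the subunit gene msl-2 did not pass without CRY2-ZLD replicate 2 or 4 or wild-type replicate 1 (adjusted p = 0.0620, 0.0808 and 0.105), and 1 member fell without CRY2-ZLD replicate 4. The noncoding RNA lncRNA:roX1 had 18.9, 23.8 and 5.8 CPM in CRY2-ZLD, against 227, 424 and 359 CPM in wild type (-4.38 ± 0.55, adjusted p = 4.5e-07). The complex subunit gene msl-3 had 52.9, 111 and 164 CPM in CRY2-ZLD and 15.8, 9.34 and 13.7 CPM in wild type (3.07 ± 0.41, adjusted p = 1.69e-06). These genes moved in opposite directions, and for both the libraries of the genotypes lay apart.

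Along the anterior-posterior axis pair-rule genes, which set alternate segments, had 8 of 10 members lower (median -4.14), and trunk gap genes, which set broad domains before them, 4 of 7 (median -2.53). The pair-rule repressor gene hry (FBgn0001168, chromosome 3L, 8675759 to 8679253, plus strand) had 3.01, 0.840 and 1.86 CPM in CRY2-ZLD, against 197, 18.6 and 232 CPM in wild type (-6.28 ± 0.72, adjusted p = 8.67e-08). The homeobox gene ftz had 0.753, 0.280 and 0.146 CPM in CRY2-ZLD and 297, 20 and 273 CPM in wild type (-8.95 ± 1.04). For both genes wild-type replicate 2 lay far below the other wild-type libraries and still above every CRY2-ZLD library. Also lower were eve (-4.59 ± 0.51) and odd (-5.70 ± 0.78), which code for pair-rule repressors.

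Of the gap genes, gt, a leucine zipper repressor (FBgn0001150, chromosome X, 2427113 to 2428967, minus strand), had 13.3, 11.5 and 11.7 CPM in CRY2-ZLD and 503, 127 and 425 CPM in wild type (-4.85 ± 0.49). The zinc finger repressor gene Kr had 110, 84.6 and 25.6 CPM in CRY2-ZLD and 547, 303 and 542 CPM in wild type (-2.66 ± 0.41). Both genes lay apart between genotypes. The gap gene hb, which has a maternal as well as a zygotic transcript, had 348, 599 and 235 CPM in CRY2-ZLD and 1776, 554 and 1466 CPM in wild type (-1.68 ± 0.60, adjusted p = 0.0532). Its wild-type replicate 2 lay below CRY2-ZLD replicate 2.

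Terminal and gut genes, which pattern the ends of the embryo, had 5 of 6 members lower (median -3.76). The nuclear receptor gene tll, expressed at both poles, had 4.92, 0.980 and 1.75 CPM in CRY2-ZLD, against 230, 39 and 187 CPM in wild type (-5.89 ± 0.85). The GATA factor gene srp had 10.7, 2.05 and 3.21 CPM in CRY2-ZLD, against 62.9, 24.1 and 107 CPM in wild type (-3.61 ± 0.74). In both the lowest wild-type library was still above the highest CRY2-ZLD library.

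Of 8 segment polarity genes, which act after the pair-rule genes, ptc, a Hedgehog receptor gene, fell (-3.27 ± 0.52) and wg, a Wnt ligand gene, rose (1.71 ± 0.49), with a list median of 1.35. In the fit of these 6 libraries alone ptc was at -3.23 (adjusted p = 0.0795). The wg call did not hold without CRY2-ZLD replicate 1, wild-type replicate 2 or wild-type replicate 4 (adjusted p = 0.0693, 0.0702 and 0.0712). Hox genes, which give segments their identity, had 1 of 8 lower and 3 higher (median 1.99), with 4 higher without CRY2-ZLD replicate 4 and 1 higher without wild-type replicate 2. Among them lab had 4.92, 3.40 and 1.28 CPM in CRY2-ZLD and 0.0508, 0.196 and 0.286 CPM in wild type, with no overlap (4.08 ± 0.94, adjusted p = 0.00252). In the same list Ubx had 3 counts over the CRY2-ZLD libraries and 114 over the wild-type libraries, 39.3-fold lower by these counts (95% counting interval 13.1 to 194). In the fit of the 6 libraries alone Ubx did not pass (adjusted p = 0.0520). The other hox genes that rose, Abd-B and Scr, did not pass without CRY2-ZLD replicate 1 (2.03, adjusted p = 0.277, and 1.29, adjusted p = 0.569) or without any 1 of the wild-type libraries.

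**Figure D3:**
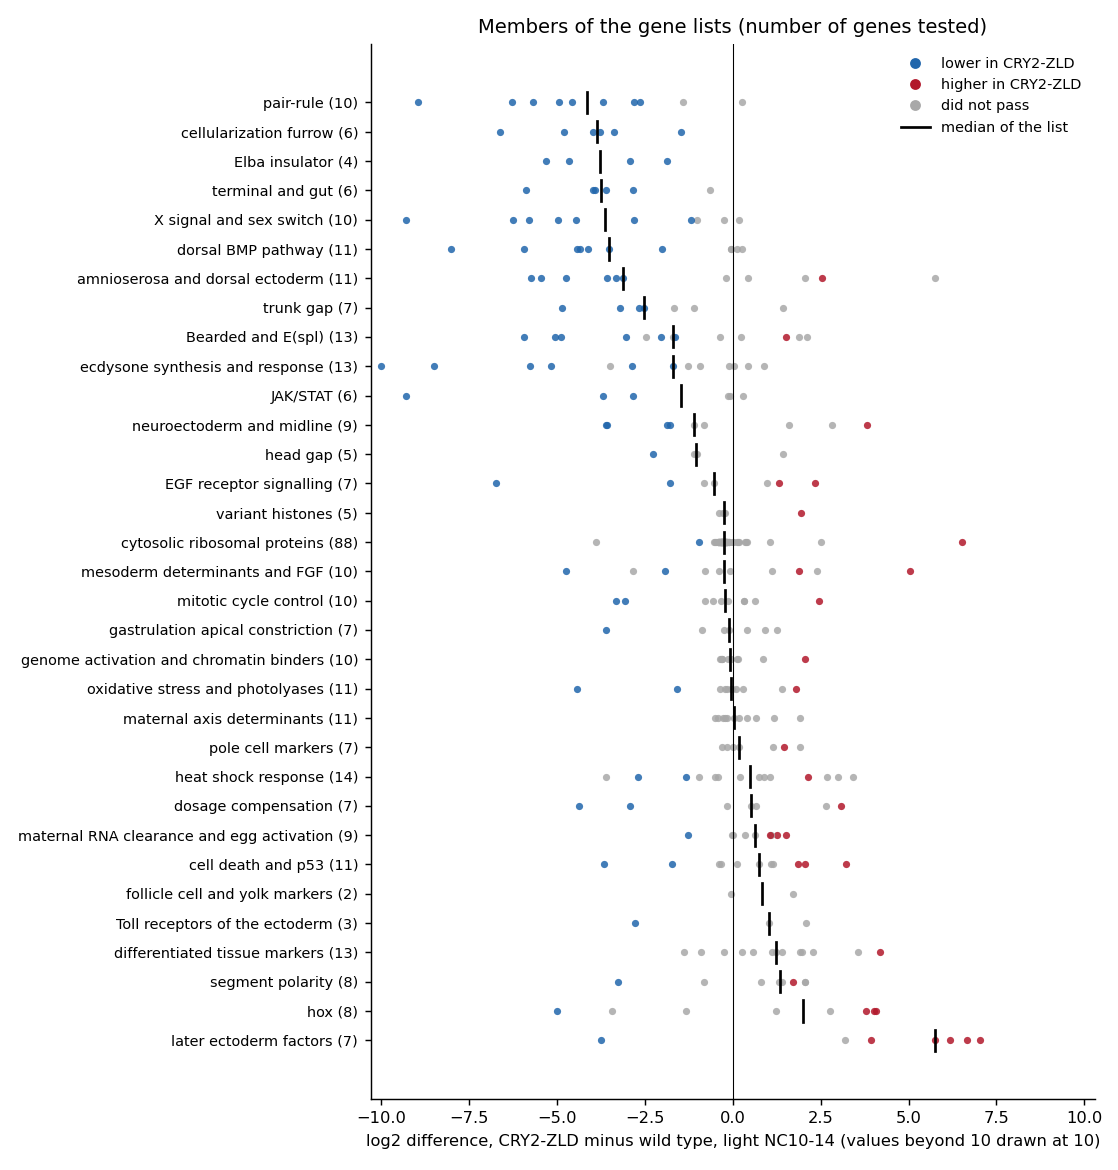
Log2 difference (CRY2-ZLD minus wild type, light NC10-14) of each tested member of 33 gene lists, with the number tested in brackets and lists ordered by median. Blue and red points passed the test, grey points did not, and black bars are medians of the fitted differences, which lie between -4.14 for the pair-rule genes and 5.74 for the later ectoderm factors.

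On the dorsal side of the embryo the BMP pathway sets the fates of epidermis and amnioserosa. Of 11 pathway genes 7 fell (median -3.54). Those that did not pass were the receptor genes tkv, sax and put and the transducer gene Mad, with differences of -0.06 to 0.25. The metalloprotease gene tld, whose product frees BMP ligand from its inhibitor (FBgn0003719, chromosome 3R, 24749731 to 24753510, plus strand), had 2.85, 1.21 and 0.292 CPM in CRY2-ZLD, against 475, 240 and 425 CPM in wild type (-8.03 ± 0.66, adjusted p = 1.92e-10). The gene tsg, for a cofactor of the inhibitor, had 2.50, 4.71 and 2.04 CPM in CRY2-ZLD and 177, 153 and 232 CPM in wild type (-5.93 ± 0.46). The inhibitor gene sog, expressed in the lateral ectoderm, had 17.2, 16.8 and 10.9 CPM in CRY2-ZLD and 351, 268 and 290 CPM in wild type (-4.34 ± 0.48). In none of tld, tsg and sog did the genotypes overlap, and wild-type replicate 2 was close to its group for tsg and sog. The ligand genes dpp (-4.13 ± 0.47) and scw (-4.42, adjusted p = 6.03e-06) were also lower.

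Genes of the amnioserosa and dorsal ectoderm had 6 of 11 members lower and 1 higher (median -3.13). The homeobox gene zen, which specifies the amnioserosa, had 21.3, 10.1 and 5.22 CPM in CRY2-ZLD, against 748, 314 and 555 CPM in wild type (-5.47 ± 0.68). Its neighbour zen2 had 1.11, 1.17 and 0.912 CPM in CRY2-ZLD, against 85, 62.9 and 23.5 CPM in wild type (-5.74 ± 0.86). Both lay apart between genotypes by more than an order of magnitude in every library. Neuroectoderm and midline genes had 4 of 9 lower and 1 higher (median -1.11), and 2 lower without CRY2-ZLD replicate 4. The homeobox gene Dr, of the dorsal neural column, had 12.4, 11.2 and 2.85 CPM in CRY2-ZLD and 1.12, 0.342 and 0.413 CPM in wild type (3.83 ± 0.89, adjusted p = 0.00263). The neural gene SoxN had the opposite sign (-3.58 ± 0.56), and in the fit of these 6 libraries alone it was at -3.57 (adjusted p = 0.0512).

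EGF receptor signalling split by member, with 2 of 7 lower and 2 higher (median -0.52), and 1 each without CRY2-ZLD replicate 4. The receptor gene Egfr (FBgn0003731, chromosome 2R, 21522420 to 21559977, plus strand) had 11.5, 1.07 and 1.13 CPM in CRY2-ZLD, against 857, 353 and 257 CPM in wild type (-6.74 ± 0.62, adjusted p = 1.42e-09). The gene of the pathway's transcription factor, pnt, had 24.7, 9.52 and 19.5 CPM in CRY2-ZLD and 4.32, 2.89 and 3.34 CPM in wild type (2.35 ± 0.40). Receptor and transcription factor moved in opposite directions, and both separated the genotypes. The Bearded and E(spl) genes, regulators of the Notch pathway, had 6 of 13 lower and 1 higher (median -1.71). The Bearded family gene Ocho had 1.55, 0.466 and 0.255 CPM in CRY2-ZLD and 54.5, 20.1 and 66 CPM in wild type (-5.94 ± 0.52). E(spl)m4-BFM, of the same family, had 4.68, 2.94 and 2.19 CPM in CRY2-ZLD and 102, 117 and 107 CPM in wild type (-5.05 ± 0.38). Its wild-type embryos lay close together and far above every CRY2-ZLD embryo.

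In the mesoderm and FGF list 2 of 10 fell and 2 rose (median -0.24), with 1 lower without CRY2-ZLD replicate 4 and 1 higher without wild-type replicate 2. The zinc finger repressor gene sna, a mesoderm determinant, had 14.6, 7.88 and 2.15 CPM in CRY2-ZLD, against 310, 80.2 and 271 CPM in wild type (-4.75 ± 0.88). The heart factor gene tin, of the later mesoderm, had 4.40, 9.56 and 5.22 CPM in CRY2-ZLD and 0.152, 0.293 and 0.127 CPM in wild type (5.04 ± 1.24, adjusted p = 0.00457). Neither gene overlapped between genotypes. Of 7 genes for apical constriction at gastrulation Traf4, an adaptor at adherens junctions, passed (-3.60 ± 0.71), and in the fit of these 6 libraries alone it was at -3.56 (adjusted p = 0.0731). Reads of Traf4 could be shared with another gene over 864 of its 3225 exon bases.

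Head gap genes had 1 of 5 members lower (ems, median -1.05), Toll receptors of the ectoderm 1 of 3 lower (Tollo, median 1.04) and variant histones 1 of 5 higher (BigH1, median -0.26). Each of these calls was lost with CRY2-ZLD replicate 4 left out, and with at least 1 other library left out, with adjusted p of 0.0518 to 0.146 in those fits.

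Ecdysone is the steroid hormone of insect moulting, and its synthesis genes are first transcribed in the blastoderm. Of 13 genes for its synthesis and response 6 fell (median -1.70). The cytochrome P450 gene spo had 13.8, 12 and 4.12 CPM in CRY2-ZLD, against 447, 171 and 459 CPM in wild type (-5.17 ± 0.55, adjusted p = 2.28e-08). Another P450 of the synthesis route, phtm (FBgn0004959, chromosome X, 18685766 to 18688433, plus strand), had 1 count in the 3 CRY2-ZLD libraries together and 2117 in those of wild type, which is 2191-fold lower (95% counting interval 393 to 86570). The enzyme gene dib had 0.674, 0.420 and 0.474 CPM in CRY2-ZLD and 25.1, 4.21 and 56.8 CPM in wild type (-5.76 ± 0.85). No CRY2-ZLD embryo reached the level of a wild-type embryo for these 3 enzymes. Of 6 JAK/STAT genes the cytokine genes upd1 and upd2 and the feedback inhibitor gene Socs36E were lower (median -1.49). The upd2 call was lost on leaving out any 1 of the 6 libraries (adjusted p = 0.0519 to 0.140), and in the fit of these 6 libraries alone Socs36E was at -2.82 (adjusted p = 0.0548).

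The largest decreases by the fitted change also included genes outside the lists. GstE10, which codes for a glutathione transferase, had 2 counts over the CRY2-ZLD libraries and 1561 over the wild-type libraries, 808-fold lower (95% counting interval 223 to 6676). CG17122 had 1 count over the CRY2-ZLD libraries, against 706 in wild type, a level 731-fold lower (95% counting interval 131 to 28900). The gene zye had 0.119, 0.0466 and 0.255 CPM in CRY2-ZLD and 74.9, 35.8 and 50.5 CPM in wild type (-8.47 ± 0.94). The neprilysin-like protease gene Nepl4 was at -8.46 ± 0.80. Arc2, which codes for a capsid-like protein, had 0.119, 0.0466 and 0.109 CPM in CRY2-ZLD and 25.2, 34.2 and 20.4 CPM in wild type (-8.07 ± 1.0). In each of these genes the highest CRY2-ZLD library lay more than an order of magnitude below the lowest wild-type library. They were picked for no overlap between the genotypes and a large change, so this separation follows in part from the selection.

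Without light 4 of these 5 genes were also lower in CRY2-ZLD, against wild type lit during NC13-14. GstE10 had 0 to 0.0382 CPM in unlit CRY2-ZLD, against 10.0 to 22.5 CPM in wild type NC13-14 (adjusted p = 7.73e-09), and Arc2 had 0 to 0.207 CPM in unlit CRY2-ZLD, against 3.90 to 5.67 CPM in wild type NC13-14 (adjusted p = 5.01e-06). The genes zye (-4.87 ± 0.65) and Nepl4 (-2.48 ± 0.48) were lower without light too, and CG17122 did not pass (-1.17 ± 0.59, adjusted p = 0.247). Between lit and unlit CRY2-ZLD embryos, which also differed in smg, zye (-4.28, adjusted p = 0.000178) and Nepl4 (-6.30, adjusted p = 6.52e-07) were lower in the lit ones. GstE10 and Arc2 did not pass (adjusted p = 0.665 and 0.655).

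Among the lower genes with the most wild-type reads were, beside slam, Nrt and kuk, the genes wech, Nin and bard. The link protein gene wech, which ties integrins to the cytoskeleton, had 1300, 1568 and 1308 CPM in CRY2-ZLD and 6235, 2626 and 5715 CPM in wild type (-1.80 ± 0.24). The centrosomal protein gene Nin had 779, 646 and 497 CPM in CRY2-ZLD and 4495, 1651 and 3823 CPM in wild type (-2.38 ± 0.28). The gene bard, 1 exon block on chromosome 3R (FBgn0038566, 18081048 to 18082583, plus strand), had 22.3, 27 and 9.05 CPM in CRY2-ZLD and 3189, 1414 and 3104 CPM in wild type (-7.05 ± 0.49, adjusted p = 1.5e-11). Wild-type replicate 2 was the lowest of its group for all 3 genes and above every CRY2-ZLD library.

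Later ectoderm factors, which act in the epidermis and nervous system after gastrulation, had 5 of 7 members higher and 1 lower (fitted median 5.74, and 3.94 with H15 and ara, at 0 counts in wild type, at their bounds). Without wild-type replicate 2 there were 3 higher, and without CRY2-ZLD replicate 4 there were 6. The T-box gene mid (FBgn0261963, chromosome 2L, 5461639 to 5467610, plus strand) had 89.1, 75.9 and 23.4 CPM in CRY2-ZLD, against 0.966, 1.81 and 0.763 CPM in wild type (5.74 ± 1.06, adjusted p = 0.00019). The POU factor gene vvl had 29.2, 3.40 and 0.401 CPM in CRY2-ZLD and 0.152, 0.245 and 0.0636 CPM in wild type (6.18 ± 1.03). The homeobox gene mirr had 20.9, 6.81 and 4.82 CPM in CRY2-ZLD and 0.711, 0.831 and 0.573 CPM in wild type (3.94 ± 0.84). CRY2-ZLD replicate 1 was the highest for mid, vvl and mirr and replicate 4 the lowest, and the genotypes did not overlap. The member that fell, the epidermal activator gene grh, had 7.57, 1.54 and 1.39 CPM in CRY2-ZLD and 78, 22.8 and 41.1 CPM in wild type (-3.75 ± 0.46).

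Markers of differentiated tissues had 1 of 13 members higher (median 1.24), near the 7.82% of all genes that rose. Without CRY2-ZLD replicate 4 there were 3. DESeq2 called 3 higher, and at an unadjusted p under 0.05 in edgeR 4 were higher and 1 lower. The markers summed to 19.3 to 100.1 CPM in CRY2-ZLD embryos and 21.7 to 27.0 CPM in wild-type embryos, with 1 member at 0 counts in all 6 libraries. In CRY2-ZLD the members with the most RNA, elav (37.2, 23.3 and 4.31 CPM) and trh (36.2, 21 and 7.41 CPM), were highest in replicate 1. Wild type had 9.30, 3.23 and 14.7 CPM of elav and 3.51, 6.94 and 2.89 CPM of trh, and neither passed. The part of the markers in the other increases was not tested. The member that rose, the synapse gene brp, did not pass without CRY2-ZLD replicate 1 (2.92, adjusted p = 0.210) or without any 1 of the wild-type libraries (adjusted p = 0.0995 to 0.124).

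The largest increases by the fitted change were in genes with little or no RNA in wild type. The receptor gene mthl8 had 27.1, 20 and 7.34 CPM in CRY2-ZLD and 0 counts in wild type, and was at least 423-fold higher with a floor of 3 counts over the wild-type group. The cytochrome P450 gene Cyp4e2 had 3752 counts over the CRY2-ZLD libraries and 3 over the wild-type libraries, 1209-fold higher (95% counting interval 413 to 5863). The noncoding RNA lncRNA:dntRL had 17.6, 24.8 and 19.9 CPM in CRY2-ZLD and 0.203, 0 and 0.127 CPM in wild type (7.48 ± 0.97). These 3 genes lay apart by more than an order of magnitude in every library, where no overlap was a condition of the selection. CG5568 (5.81 ± 0.65), Kebab (5.77 ± 0.65) and CG12219 (5.71 ± 0.56) followed, with 29.5 to 129 CPM in the CRY2-ZLD libraries and 0.254 to 2.16 CPM in the wild-type libraries.

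All 6 of these genes were also higher in unlit CRY2-ZLD embryos than in wild type lit during NC13-14. The gene mthl8 had 33.6 to 52.1 CPM in unlit CRY2-ZLD and 0 to 0.224 CPM in wild type NC13-14 (adjusted p = 0.000777), and Cyp4e2 averaged 8.79 ± 2.02 CPM (SD, n = 4) in unlit CRY2-ZLD and 0 counts in wild type NC13-14 (adjusted p = 2.55e-09). The differences were 4.98 ± 0.75 for lncRNA:dntRL, 5.52 ± 0.59 for CG5568, 2.21 ± 0.48 for Kebab and 2.11 ± 0.42 for CG12219. Between lit and unlit CRY2-ZLD embryos mthl8 (-1.20, adjusted p = 0.444) and lncRNA:dntRL (0.94 ± 0.62, adjusted p = 0.255) did not pass. Cyp4e2 (2.50 ± 0.38), CG5568 (1.54 ± 0.49), Kebab (1.36 ± 0.48) and CG12219 (2.06 ± 0.43) were higher in the lit embryos. In that comparison Kebab did not pass without CRY2-ZLD NC10-14 replicate 1 or 2 (adjusted p = 0.0519 and 0.0853). Lit and unlit embryos also differed in smg, as given above, which cannot be told apart from light.

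Of 11 cell death and p53 genes 3 rose and 2 fell (median 0.75), with 2 higher without wild-type replicate 2. The gene Xrp1, for a stress-induced bZIP factor, had 94.6, 56 and 21.5 CPM in CRY2-ZLD, against 7.22, 6.45 and 4.64 CPM in wild type (3.23 ± 0.55, adjusted p = 7.49e-05). The cell death inducer gene hid had 337, 113 and 25.3 CPM in CRY2-ZLD and 50.7, 40.8 and 22.5 CPM in wild type (2.06 ± 0.52). The caspase inhibitor gene Diap1 had 32.9, 31.2 and 37.6 CPM in CRY2-ZLD and 90, 110 and 137 CPM in wild type (-1.73 ± 0.31). Of these genes Xrp1 and Diap1 separated the genotypes, while hid overlapped and was at 0.90 without CRY2-ZLD replicate 1 (adjusted p = 0.231).

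Heat shock genes, a readout of stress, gave 2 lower and 1 higher of 14 (median 0.48), beside 7.58% lower and 7.82% higher over all genes. Their summed levels were 696 to 1876 CPM in CRY2-ZLD and 773 to 1941 CPM in wild type. The member that rose, Hsp27, was at 0.58 without CRY2-ZLD replicate 4 (adjusted p = 0.522), the library with the highest level of its group for 12 of the 14, and it did not pass without wild-type replicate 1 (adjusted p = 0.0842). Of those that fell, lncRNA:Hsromega did not pass without any 1 of the CRY2-ZLD libraries or without wild-type replicate 4 (adjusted p = 0.0501 to 0.215). Leaving out CRY2-ZLD replicate 4 gave 1 lower and 0 higher in the heat shock list. Genes of oxidative stress and light repair gave 2 lower and 1 higher of 11, beside the same shares over all genes, with a median of -0.04. Without CRY2-ZLD replicate 4 there were 1 lower and 0 higher. The call of cry, the fly's own blue-light receptor gene, which was lower with 2 counts in all CRY2-ZLD embryos together and 48 in those of wild type, was lost without any 1 of the libraries except wild-type replicate 1 (adjusted p = 0.0518 to 0.137). The photolyase gene phr6-4, which rose, did not pass without CRY2-ZLD replicate 4 or wild-type replicate 1 or 4 (adjusted p = 0.135, 0.0553 and 0.0660).

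Of 11 maternal axis determinants deposited in the egg 0 passed in either direction by edgeR (median 0.02), where at an unadjusted p under 0.05 there were 1 lower and 1 higher, and by DESeq2 1 higher. Their summed level was 2603 to 3275 CPM in CRY2-ZLD and 3108 to 3568 CPM in wild type. Of 9 genes for the clearance of maternal RNA and egg activation 3 rose and 1 fell (median 0.62), and without CRY2-ZLD replicate 4 only 1 rose. The RNA-binding protein gene tral had 1792, 1869 and 2317 CPM in CRY2-ZLD, against 708, 1189 and 976 CPM in wild type, with no overlap (1.06 ± 0.24, adjusted p = 0.00185). The repressor gene brat and the deadenylase gene twin also rose, but without CRY2-ZLD replicate 4 they were at 0.51 (adjusted p = 0.368) and 0.83 (adjusted p = 0.143), and brat did not pass without wild-type replicate 2 (adjusted p = 0.0561). CRY2-ZLD replicate 4 was the highest of its group for 8 of the 9 clearance genes and 8 of the 11 axis determinants. The member that fell, plu, for an egg kinase subunit, did not pass without CRY2-ZLD replicate 1 or 2 or any 1 of the wild-type libraries (adjusted p = 0.0508 to 0.155).

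Among the genes that rose with the most CRY2-ZLD reads were, after tral, the spliceosome gene Prp8 and the poly(A) polymerase gene wisp. Prp8 had 1102, 1225 and 1205 CPM in CRY2-ZLD and 581, 698 and 530 CPM in wild type, with no overlap (0.97 ± 0.26, adjusted p = 0.00914). For wisp the values were 550, 513 and 1700 CPM in CRY2-ZLD and 216, 338 and 244 CPM in wild type (1.79 ± 0.53), and it did not pass without CRY2-ZLD replicate 4 (1.05, adjusted p = 0.221) or wild-type replicate 1 or 4 (adjusted p = 0.0838 and 0.0604).

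Of 7 pole cell markers, which read the germline precursors, gcl passed, and it did not without CRY2-ZLD replicate 4 (0.36, adjusted p = 0.613) or wild-type replicate 1 or 4 (adjusted p = 0.0991 and 0.0677). Ribosomal protein genes had 1 of 88 lower and 1 higher (median -0.26). The one lower was RpS5b, a ribosomal protein paralog abundant in the egg, at 584, 725 and 946 CPM in CRY2-ZLD and 1428, 1294 and 1703 CPM in wild type, with no overlap (-0.97 ± 0.22, adjusted p = 0.00166).

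Unlit CRY2-ZLD embryos were set against wild type lit during NC13-14, a comparison that shares no library with the one above and was added after the data were seen. It had 424 genes lower (4.45%) and 340 higher (3.57%), 8.03% together. Of the genes that fell under light at NC10-14, 182 were also lower in unlit CRY2-ZLD (25.2% of 722, and 42.9% of 424), and of those that rose, 171 were also higher (23.0% of 744, and 50.3% of 340). The median difference of the 722 genes was -0.59 in unlit CRY2-ZLD, beside -2.92 under light. These genes were called on the NC10-14 values, which favours larger differences there, and the wild-type groups differ. The medians therefore give no test of light. With ribosomal protein scaling the shared lower genes were 95, and with DESeq2 the shared higher genes were 291.

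The lists with the largest decreases under light had medians closer to 0 in unlit CRY2-ZLD embryos. They were picked by their NC10-14 values, and the wild-type groups differ, so this gives no test of light. The list medians against wild type NC13-14 were -0.31 for the pair-rule genes, -0.58 for the furrow genes, -0.82 for the Elba group, -0.53 for the terminal genes, -0.38 for the X signal genes, -0.40 for the BMP pathway, -0.52 for the amnioserosa genes and -0.13 for the trunk gap genes, beside 0.03 over all genes. Unlit CRY2-ZLD embryos had 2407 to 4929 CPM of slam, against 4675 to 7387 CPM in wild type NC13-14 (-0.71 ± 0.35, adjusted p = 0.234). For ftz they had 253 to 345 CPM, against 250 to 283 CPM in wild type NC13-14 (0.16 ± 0.61, adjusted p = 0.915). The ranges of slam and ftz overlapped between these groups. Elba2 (-1.20 ± 0.36, adjusted p = 0.0317) and Elba3 (-1.33 ± 0.39, adjusted p = 0.0289) were lower without light as well. Neither passed with ribosomal protein scaling (adjusted p = 0.106 and 0.139) or without 5 libraries that stood apart (adjusted p = 0.0666 and 0.0906). Of those 5 libraries only wild type NC13-14 replicate 4 is part of this comparison. That library had 4382299 counts, against 13846445 to 30569155 in the other libraries of unlit CRY2-ZLD and wild type NC13-14. Later ectoderm factors, which rose under light, had a median of 1.42 without it, with 1 of 7 higher. The genes vvl and Xrp1 were higher without light, but did not pass without those 5 libraries (adjusted p = 0.0564 and 0.0579). Lower without light were also sisA, E(spl)m4-BFM and Ac78C, which did not pass with ribosomal protein scaling (adjusted p = 0.05002, 0.0823 and 0.150).

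Other genes differed by genotype with and without light, and those named here were chosen after their values were seen. The mitochondrial malate dehydrogenase gene Mdh2 (FBgn0262559, chromosome 3R, 18226396 to 18228718, plus strand) had 5.43, 2.85 and 4.45 CPM in CRY2-ZLD and 354, 425 and 422 CPM in wild type under light at NC10-14. Unlit CRY2-ZLD had 1.81 to 3.28 CPM of Mdh2, and wild type NC13-14 371 to 449 CPM. Every CRY2-ZLD embryo was low for Mdh2, lit or not. Its difference was -6.55 ± 0.33 at NC10-14 (adjusted p = 3.35e-15) and -7.13 ± 0.29 for unlit CRY2-ZLD against wild type NC13-14 (adjusted p = 1.17e-17). Between lit and unlit CRY2-ZLD embryos 1623 genes were lower in the lit ones (17.1%) and 1937 higher (20.3%), 37.4% together. Mdh2 differed by 0.61 ± 0.25 between them (adjusted p = 0.0611).

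The glutathione transferase gene GstE8 had 1.66, 1.03 and 0.255 CPM in lit CRY2-ZLD and 0.336 to 0.710 CPM in unlit CRY2-ZLD, against 82.1, 84.8 and 67.9 CPM in wild type NC10-14 (-6.32 ± 0.56). The deubiquitinase gene Usp5 had 18.2, 17.4 and 14.3 CPM in lit CRY2-ZLD and 3.76 to 8.52 CPM in unlit CRY2-ZLD, against 235, 287 and 261 CPM in wild type NC10-14 (-3.97 ± 0.35). For Usp5 the unlit CRY2-ZLD embryos lay below the lit ones (lit minus unlit 1.41 ± 0.29, adjusted p = 0.000304), and for both genes all CRY2-ZLD embryos lay far below wild type.

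On the higher side the kinase gene Tak1, of immune signalling, had 171, 211 and 224 CPM in lit CRY2-ZLD and 90.6 to 132 CPM in unlit CRY2-ZLD, against 25.9, 38.8 and 23.3 CPM in wild type NC10-14 (2.78 ± 0.25). The replication factor gene RfC38 had 104, 140 and 163 CPM in lit CRY2-ZLD and 97.9 to 121 CPM in unlit CRY2-ZLD, against 18.6, 19.3 and 22.1 CPM in wild type NC10-14 (2.76 ± 0.22), with 404 of its 1604 exon bases shared with another gene. The microtubule-associated protein gene Map205 (FBgn0002645, chromosome 3R, 32055279 to 32068441, minus strand) had 334, 341 and 397 CPM in lit CRY2-ZLD and 106 to 254 CPM in unlit CRY2-ZLD, against 12.1, 12.1 and 6.42 CPM in wild type NC10-14 (5.13 ± 0.75). All lit and unlit CRY2-ZLD embryos were above all wild-type NC10-14 embryos for these 3 genes. Any other difference between the stocks and the CRY2-ZLD allele cannot be told apart here.

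The calcineurin gene Pp2B-14D had 148, 144 and 268 CPM in lit CRY2-ZLD and 5.04 to 11.9 CPM in unlit CRY2-ZLD, against 4.12, 8.61 and 4.93 CPM in wild type NC10-14 (4.99 ± 0.81). Its unlit CRY2-ZLD embryos overlapped wild type. It was higher in lit than in unlit CRY2-ZLD (4.76 ± 0.71, adjusted p = 3.92e-06), and without light it did not pass against wild type NC13-14 (2.0 ± 0.66, adjusted p = 0.0586).

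**Figure D4:**
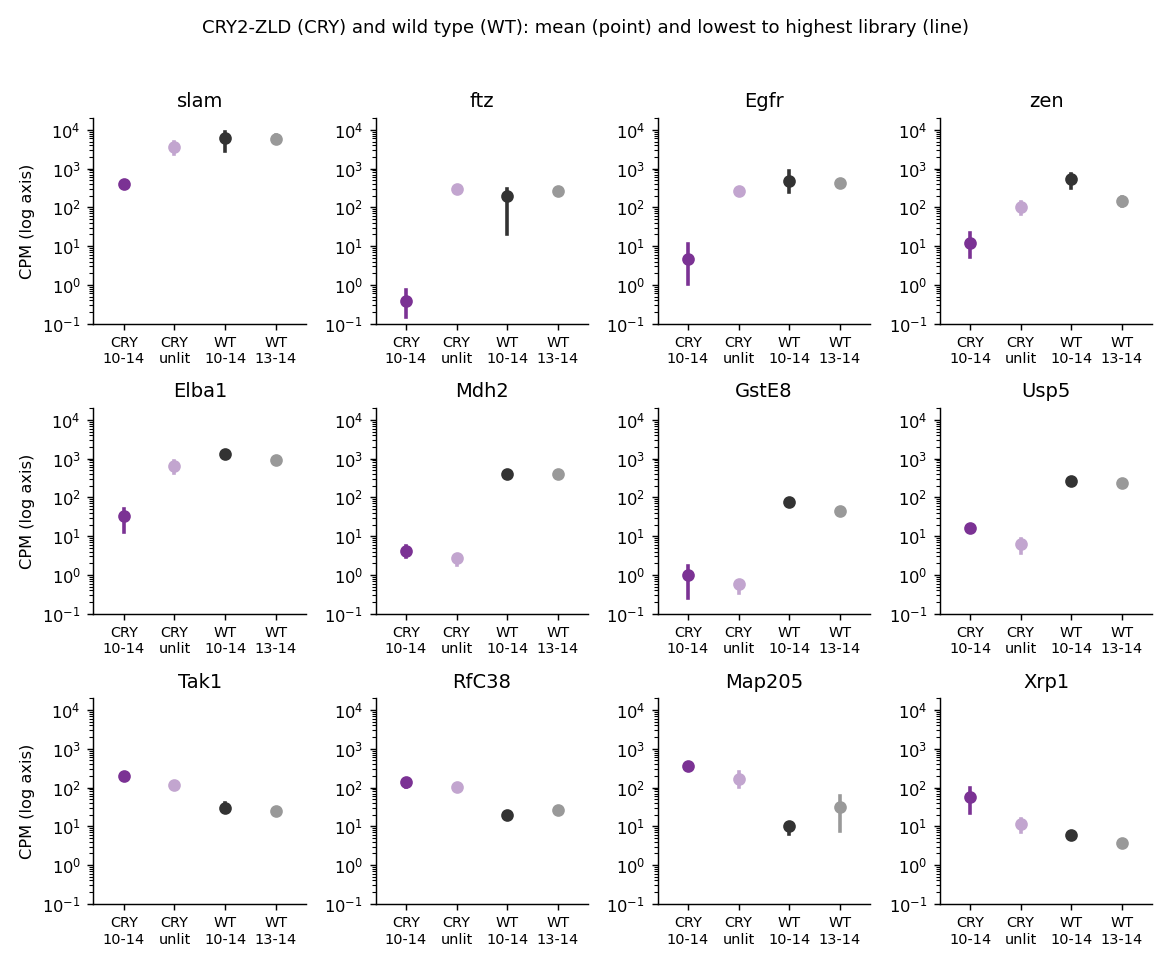
Mean level (points) and range over libraries (lines) of 12 genes in CRY2-ZLD lit during NC10-14, CRY2-ZLD without light, wild type lit during NC10-14 and wild type lit during NC13-14, in CPM on a log axis. The genes slam, ftz, Egfr, zen and Elba1 are lowest in lit CRY2-ZLD, and Mdh2, GstE8 and Usp5 are low in lit and unlit CRY2-ZLD.

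Light confined to NC13-14 gave 851 genes lower (8.94%) and 792 higher (8.32%), 17.3% together, in CRY2-ZLD against wild type, in embryos that are not part of the NC10-14 comparison. Of the 722 genes that fell at NC10-14, 513 fell there too (71.1%, and 60.3% of the 851), and of the 744 that rose 299 rose there too (40.2%, and 37.8% of the 792), with 2 lower. The difference between the windows was tested for each gene. Embryos of the windows also differed in smg in both genotypes, which cannot be told apart from the light window. It passed for 95 genes (0.998%), with 44 more negative at NC10-14 (0.462%) and 51 more positive (0.536%). Without CRY2-ZLD NC10-14 replicate 4 these counts were 19 and 22, without wild type NC10-14 replicate 1 the first was 28 and without wild type NC10-14 replicate 2 the second was 31. Without CRY2-ZLD replicate 1 or 2 of NC10-14 the second count was 95 and 165.

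Of the genes named here that passed this test, Elba1, Elba3, tsg, bard and Bro did so in every alternative run, all with a larger decrease at NC10-14. Elba1 was at -5.32 at NC10-14 and -2.0 at NC13-14 (difference -3.31 ± 0.48, adjusted p = 0.000198), and Elba3 at -4.67 and -1.41 (difference -3.26 ± 0.60, adjusted p = 0.0029). The gene tsg, of the BMP pathway, was at -5.93 and -2.57 (difference -3.37 ± 0.51), and bard at -7.05 and -3.35 (difference -3.69 ± 0.52). In all 4 the decrease was also present at NC13-14.

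The gene Bro, which codes for the partner of Runx factors (1 exon block on chromosome 3L, 1647869 to 1648612, plus strand), was chosen after its values were seen. It had 3.05, 5.46 and 1.79 CPM in CRY2-ZLD and 280, 271 and 296 CPM in wild type at NC10-14. At NC13-14 it had 17.4 to 47 CPM in CRY2-ZLD and 84.4 to 167 CPM in wild type, and the difference between the windows was -4.39 ± 0.62. Its wild-type level was higher at NC10-14 than at NC13-14 and its CRY2-ZLD level lower. For slam, Nrt, ftz, hry and gt the decrease at NC10-14 was not shown to differ from that at NC13-14, with differences of -0.86, -0.64, -1.55, 0.35 and -0.53 and adjusted p of 0.455 to 0.938.

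**Figure D5:**
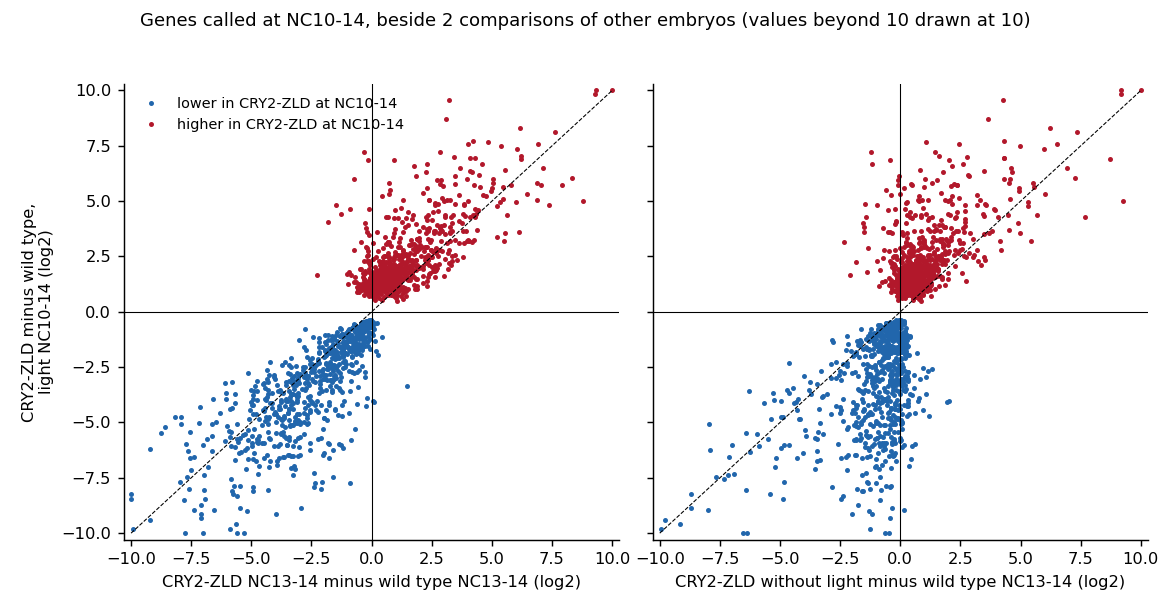
Log2 difference at NC10-14 (vertical axis) of the 722 genes lower and 744 higher in CRY2-ZLD, against CRY2-ZLD minus wild type under light during NC13-14 (left) and unlit CRY2-ZLD minus wild type NC13-14 (right). Dashed lines mark equal values: the blue genes have a median of -2.01 on the left axis and of -0.59 on the right axis.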

How the data were processed

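RNA of single embryos was sequenced, and the authors deposited 1 table of whole-number counts per gene for 34 libraries in 9 groups. Per the file headers, reads were counted with featureCounts 1.5.3 on the FlyBase r6.20 annotation, with no strand option in the recorded command, so that reads of antisense partners cannot be told apart. The submitters' processing notes name Trimmomatic 0.36, HISAT2 2.1.0, DESeq2 1.14.1 and the build dm6. The gene length in bases, also in the deposited table, served only to give levels per kilobase. Coordinates are those of the deposited table.

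Genes were kept with edgeR 4.0.16 (R 4.3.3, limma 3.58.1) by filterByExpr with a minimum count of 10, which left 9519 of 17491 genes and 99.98% of counts. A quasi-likelihood model with TMM scaling was fitted to all 34 libraries with 1 mean per group, and p-values were adjusted by Benjamini-Hochberg over all genes tested, with calls at 0.05. DESeq2 1.42.0 was an alternative. The code was tested on simulated counts. Counting intervals (95%) and the floor of 3 counts cover counting error only. Each library is 1 embryo, and p-values measure the spread between embryos. Replicate numbers did not mark pairs, though replicate 4 carries later sample numbers in the column names, and a term for the later numbers was an alternative. Whether those libraries were prepared or sequenced apart is not labelled. By their counts no library pair was identical within counting noise.

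The members and gene lists were chosen with earlier results of these data known. The text names a panel of early genes, the 8 largest decreases and increases among genes with at least 10 CPM and no overlap, the 6 lower and 6 higher genes with the most reads, up to 4 genes of each list by p, and genes stated to be chosen after their values were seen. Alternatives were other scalings, filters, tools and models, and leaving out each of the 6 libraries.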

Additional observations from a re-analysis of the deposited data

Results flagged for a closer look

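For 16 of the genes named here the difference between CRY2-ZLD and wild type itself differed between light at NC10-14 and light at NC13-14 by the test of that difference in edgeR's quasi-likelihood model (log2 difference at NC10-14 minus that at NC13-14, adjusted over all genes). Of all genes tested 0.998% passed. The values of Elba1 (-3.31), Elba3 (-3.26), tsg (-3.37), bard (-3.69) and Bro (-4.39) passed in every alternative run.

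The other 11 genes did not pass in at least 1 alternative. More negative at NC10-14 were halo (-2.85, adjusted p = 0.0202), nullo (-4.85, adjusted p = 0.0201), sc (-4.64, adjusted p = 0.0126), E(spl)m4-BFM (-2.09, adjusted p = 0.0083), Nin (-1.52, adjusted p = 0.0285) and Ppa (-2.41, adjusted p = 0.0285). More positive were msl-3 (2.37, adjusted p = 0.0151), Kebab (2.91, adjusted p = 0.0474), CG12219 (2.74, adjusted p = 0.0247), wisp (2.72, adjusted p = 0.0484) and brat (2.25, adjusted p = 0.0126). Without CRY2-ZLD NC10-14 replicate 4 each of these except sc missed the threshold, with adjusted p between 0.0805 for CG12219 and 0.316 for wisp, and sc missed it without wild type NC10-14 replicate 2 (-3.87, adjusted p = 0.0627). Some of these calls were also lost on leaving out wild type NC10-14 replicate 1, 2 or 4 or CRY2-ZLD NC10-14 replicate 2, with adjusted p of 0.0507 for halo to 0.150 for Nin. The signs at the windows differed for nullo (-3.37 at NC10-14 and 1.48 at NC13-14), wisp (1.79 and -0.93) and brat (1.26 and -0.99). The cause of these differences was not tested.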

How the results depend on the processing

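Each of the 110 named genes was recomputed under up to 18 alternatives. Leaving out 5 libraries, and 2 libraries together, was chosen after the data were seen. Of 1965 values 1793 kept their direction and side of the threshold, 167 no longer passed, 4 passed in addition, and smg reversed with replicates 1 and 2 only (-0.10), where it did not pass in either case. The cause of the moved counts below was not tested.

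Genes lower at NC10-14 numbered 722, against 376 in a fit of the compared groups alone, 444 in replicates 1 and 2 only, 446 with ribosomal protein scaling and 489 to 666 with 1 library left out. Genes higher numbered 744, against 294, 309 and 807 in the first 3 of these and 413 to 922 with 1 library left out. DESeq2 gave 816 lower and 1116 higher, and without wild type NC10-14 replicate 2 and CRY2-ZLD NC10-14 replicate 4 together 388 were higher.

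The difference between windows gave 44 lower and 51 higher, against 75 and 174 with DESeq2, 21 and 16 with ribosomal protein scaling, 22 and 17 without those 2 libraries, 99 higher at a mean of at least 5 CPM, 124 higher without 5 libraries that stood apart, and 19 to 61 lower and 22 to 165 higher with 1 library left out. Genes lower in lit than in unlit CRY2-ZLD numbered 1623, against 979 with ribosomal protein scaling.

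The replicate numbers did not pair the embryos, with same-number correlations of deviations of 0.14, -0.10 and -0.10. With the replicate block in all libraries 718 genes were lower and 670 higher at NC10-14. With the block in the compared groups alone these were 163 and 97, the difference between windows gave 21 and 15, and lit against unlit CRY2-ZLD 1008 and 1197. The named genes whose NC10-14 call was lost under that block alone were halo, kuk, Z600, trbl, insv, Kr, eve, odd, srp, lab, Dr, pnt, sna, dib, wech, Nin, mirr, tral and dpp.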

Other observations

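Some other genes with large differences lay outside the lists and were chosen after their values were seen. The gene dunk, which acts in cellularization, had 28.4, 46.6 and 15 CPM in CRY2-ZLD, against 1845, 716 and 2046 CPM in wild type (-5.68 ± 0.60, adjusted p = 2.15e-08 by edgeR). Ac78C, for an adenylyl cyclase, had 2.34, 1.82 and 1.06 CPM in CRY2-ZLD and 736, 154 and 441 CPM in wild type (-8.00 ± 0.57). The gap junction gene Inx3 had 10.1, 5.74 and 1.5 CPM in CRY2-ZLD and 819, 220 and 832 CPM in wild type (-6.76 ± 0.63). In these 3 genes every CRY2-ZLD embryo lay more than an order of magnitude below every wild-type embryo.

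The F-box protein gene Ppa had 9.24, 5.78 and 1.09 CPM in CRY2-ZLD and 1734, 651 and 1385 CPM in wild type (-7.87 ± 0.56). The synaptotagmin-like gene btsz had 23.7, 10.9 and 12.8 CPM in CRY2-ZLD, against 1560, 430 and 759 CPM in wild type (-5.85 ± 0.47). On the higher side the filamin gene cher had 107, 123 and 139 CPM in CRY2-ZLD and 7.67, 9.58 and 7.73 CPM in wild type (3.88 ± 0.65, adjusted p = 4.88e-05), and unlit CRY2-ZLD embryos had 12.7 to 82.9 CPM. For cher the unlit CRY2-ZLD embryos lay between the lit CRY2-ZLD and the wild-type embryos.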
